A study of Mus musculus with 12 samples.

Results

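Transverse aortic constriction (TAC) is a surgical narrowing of the aortic arch that makes the left ventricle pump against a raised pressure. The comparison described here is the left ventricle of Balb/c mice 1 month after TAC against the left ventricle 1 month after a sham operation of the same series, in which the constriction was left out. It rests on 2 of the 12 arrays of the study, 1 array a side, chosen by the sample titles that name the series and the time. Of 18194 named genes, 11624 passed a filter on low signal and are described. The mice were 6 to 8 weeks old at the procedure and are described in the labels by strain and tissue, with no engineered allele named. Whether an array holds RNA of 1 animal or of a pool, and how tight the constriction was, is not given in the sources used here. The other arrays are TAC at 1 day and 1 week, myocardial infarction (MI, the left coronary artery tied and then reperfused per the study's design text) at 1 week and 1 month, and angiotensin II (Ang II) infusion at 1 week, each with a control array of its own. The array labels give the 1 day time to TAC, whereas the study's design text names 1 day for MI alone; the labels were followed here, so values given for TAC at 1 day and its sham rest on them. These 6 control arrays (5 shams and 1 saline-infused control) and the second sham of the same time, the MI-series sham at 1 month, give the spread against which every difference below is set.

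Pressure overload is a standard model of cardiac hypertrophy. Loaded cardiomyocytes grow and take up again parts of a fetal gene programme, with natriuretic peptides and the slow myosin heavy chain, while the adult ventricle's reliance on fatty acid oxidation is known to decline. Cardiac fibroblasts turn into matrix-producing myofibroblasts that lay down collagen, matricellular proteins and cross-linking enzymes. Signals that carry the load to the nucleus include calcineurin, which dephosphorylates NFAT factors and switches on Rcan1, and the immediate early factors of the Egr and Fos families.

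Values are scaled signals, the deposited linear probe-set signals brought to a common trimmed mean, with a floor at 4.54, and a gene is represented by its brightest probe set. A gene was called when its signals differed by 2-fold or more, the brighter of them was above 35.5 (the median of named probe sets) and the TAC 1 month array lay outside the range of all 6 controls on the side of the change. With 1 array a side no difference has a replicate check and no p-value is given. By this rule 331 genes were called, 2.85% of those kept: 205 higher in TAC at 1 month (1.76%) and 126 lower (1.08%). Setting same-time control arrays against each other by this rule, in 8 comparisons, called 175 to 288 genes (1.51% to 2.48%); there an array is judged against the range of 5 controls in place of 6. The overall count is therefore close to what control arrays give among themselves.

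The difference from the controls lay among the brighter genes that read higher. Where the brighter signal was under 100, 109 genes were higher and 85 lower, 6.16% of 3148, within the 4.25% to 6.76% of the control comparisons. Those gave 34 to 145 higher and 54 to 112 lower. The limit holds for calls in both directions, among them Egr2, Myc, Thbs3, Col4a3, Omd, Ube2c, Tubb2b, Adam12, Gzma, Adra1b and Cacna1g below. Between 100 and 1000, 76 were higher and 39 lower, 1.80% of 6406, against 0.477% to 1.26%. At 1000 and over, 20 were higher and 2 lower, 2.04% of 1081, against 0.0935% to 0.639%. By direction, the control comparisons gave 14 to 65 higher and 14 to 53 lower between 100 and 1000. At 1000 and over they gave 0 to 5 higher and 0 to 4 lower. In both classes only the higher calls exceeded the control comparisons, and the lower calls lay within them.

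**Figure D1:**
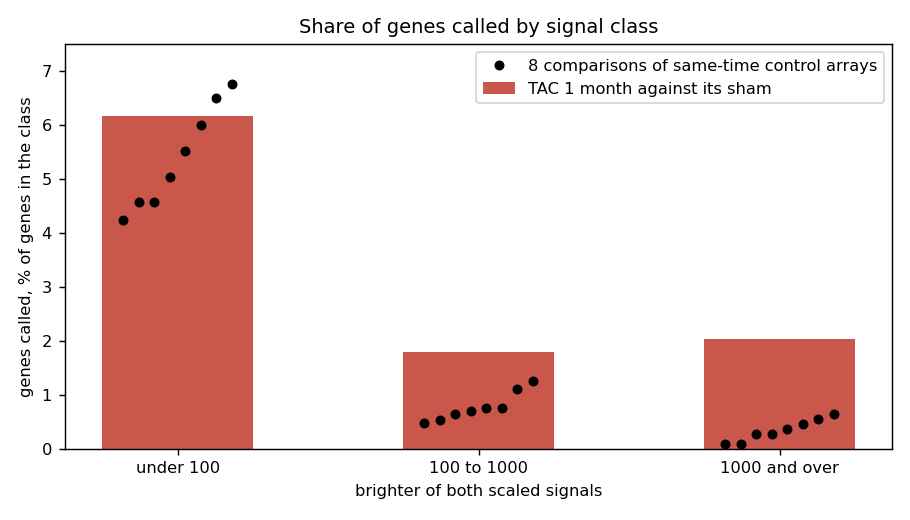
Share of genes called (y axis, % of genes in the class) in 3 classes of the brighter scaled signal (x axis). Bars are TAC 1 month against its sham and dots are the 8 comparisons of same-time control arrays, sorted by value: the bar lies among the dots under 100 and above all of them in the other classes.

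The choice of sham mattered for many single genes. Of the 331 genes, 190 (1.63% of those kept) also differed by 2-fold from the MI-series sham at 1 month in the same direction, 117 higher (1.01%) and 73 lower (0.628%). A 1 week control array set in the same way against both other 1 week controls gave 73 to 101 genes (0.628% to 0.869%). By direction these were 11 to 48 higher (0.0946% to 0.413%) and 45 to 72 lower (0.387% to 0.619%). The number lower in TAC at 1 month was thus close to that of a control array, and the number higher was above it. With a brighter signal of at least 100, 96 genes differed from both 1 month shams (68 higher and 28 lower, 1.28% of 7487), against 11 to 25 (0.149% to 0.336%) for the 1 week controls. For 68 of the 205 higher genes the array's own sham was the lowest of the 6 controls, and for 52 of the 126 lower genes it was the highest. The 190 genes are called "higher than both shams" or "lower than both shams" below, and genes that depend on the sham are named as such.

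**Figure D2:**
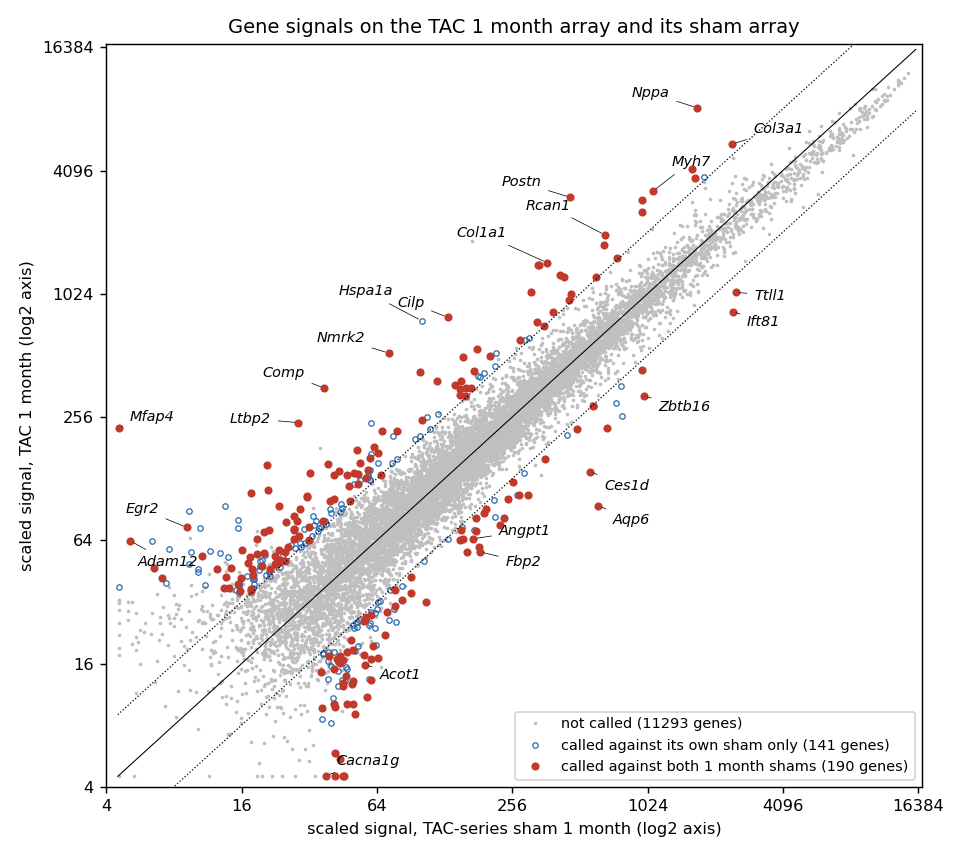
Scaled signal of every kept gene on the sham array (x axis, log2) and on the TAC 1 month array (y axis, log2). The solid line marks equal signals and the dotted lines 2-fold; Filled red points differ from both 1 month shams (190 genes), open blue ones from the own sham only (141). Nppa, Postn, Comp and Col1a1 stand above the upper line, and Aqp6, Ces1d, Ift81 and Ttll1 below the lower one.

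Among the fetal and hypertrophy genes, Nppa encodes atrial natriuretic peptide, a hormone that the adult ventricle makes little of until it is loaded. Nppa had a signal of 8296 in TAC at 1 month against 1697 in its sham and 1857 in the MI-series sham, a log2 ratio of 2.29, and the 6 controls ran from 1357 to 3075. The same gene read 8380 in TAC at 1 week against 1567, so the signal at 1 month was close to that at 1 week. Nppb, which encodes B-type natriuretic peptide, read 7841 against 7278, a log2 ratio of 0.11, and 10327 in TAC at 1 day against 5981. The TAC 1 month value of Nppb lay just above the controls (4711 to 7278), so Nppa was called and Nppb was not.

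Myh7, the slow beta-myosin heavy chain, read 3254 against 1085 (log2 ratio 1.58), with controls from 564 to 1356. Myh6, the fast alpha isoform of the adult mouse ventricle, read 11632 against 14123, a log2 ratio of -0.28, below all 6 controls. Its ratio is that of bright genes in general. All 171 kept genes with a control signal of 5000 or more had a median of -0.28, and 86.0% lay below all 6 controls. Skeletal alpha-actin (Acta1), another classic gene of the fetal programme, read 10274 against 10201 and lay within the controls. Nmrk2, a muscle kinase that makes NAD from nicotinamide riboside, read 526 against 72.1, a log2 ratio of 2.87, with 110 in the MI-series sham. It was 2227 in TAC at 1 day and 526 at 1 week, and no control exceeded 146. Sarcolipin (Sln), a small inhibitor of the calcium pump typical of atria, read 323 against 160 and 162 in both shams, and missed 2-fold against the MI-series sham with a log2 ratio of 0.99.

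In all, 6 of the 18 kept genes of the natriuretic and fetal list were called higher and 0 lower, 5 of them against both shams, and the median log2 ratio of the list was 0.53, where all kept genes had -0.0031 and control pairs of the same time had at most 0.14 in size. The remaining called genes were Rcan1, Ccn2 and Tubb2b, a beta-tubulin at 55.8 against 9.55 whose MI-series sham value was 28.3. Among 15 kept atrial chamber genes 3 were called (Nppa, Dkk3 and Sln). The atrial light chain genes stayed within the controls, with Myl4 at 613 against 475 (controls 412 to 942) and Myl7 at 563 against 389 (controls 369 to 840).

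Rcan1, an inhibitor of calcineurin whose own transcription is switched on by NFAT, read 1988 against 660 and 455 in the shams, log2 ratios of 1.59 and 2.13. A second probe set gave 1.56. At 1 week the ratio was smaller, with 1108 against 753 (log2 ratio 0.56), and TAC at 1 day gave 3228 against 797. Rcan1 was the only called gene among the 27 kept genes of calcineurin and hypertrophy signalling, a share near the 2.85% of all kept genes. The median of the list was -0.12 and turned to 0.0080 with quantile normalization, so no direction is given for the list.

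Genes of the immediate early response, which encode factors made within minutes of a stimulus, read high 1 month after the operation. Of 25 kept, 5 were called higher (4 against both shams) and 0 lower, 16 lay above all 6 controls (19.3% of all kept genes did) and 0 below, and the median log2 ratio was 0.78 against the own sham and 0.57 against the MI-series sham, where control pairs differed by at most 0.21. Egr2 read 74.0 against 9.12 and 8.72 in both shams, with controls from the floor to 18.8, a log2 ratio of 3.02. Egr3 read 109 against 17.7 and 18.6 (2.62, and 2.04 on a second probe set), the orphan nuclear receptor gene Nr4a3 read 104 against 31.3 and 32.4 (1.73), and Myc read 37.5 against 14.1 and 17.3 (1.41). Egr2 and Myc are in the class under 100, where the control comparisons gave similar shares. Fosl2 read 265 against 120 and 143 and was 2-fold against its own sham alone. Fos read 180 against 35.8, yet the TAC-series sham was the lowest of the controls, which reached 233, so Fos was not called. Egr1 (290 against 168, controls 141 to 502) and Jun (872 against 451, controls 342 to 929) also lay within the controls.

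Promoter sequences of 4 genes show the letters that factors of these pathways are known to bind. They were taken from the RefSeq promoter table (GRCm38.p6), 5′ to 3′ on the gene's strand, and the capitals mark the motif. Egr2 carries a CArG box, the site of serum response factor (SRF); Rcan1 a TGACTCA of the AP-1 type, where Fos and Jun family dimers bind; Myh7 a GGAATG, which is CATTCC on the other strand, the site of TEAD factors; and Acta1, which did not differ, both a CArG box and a CATTCC. The stretches are chr10:67537749-67537868 (+) for Egr2, chr16:92400079-92400198 (-) for Rcan1, chr14:54994717-54994836 (-) for Myh7 and chr8:123894776-123894895 (-) for Acta1.
Egr2: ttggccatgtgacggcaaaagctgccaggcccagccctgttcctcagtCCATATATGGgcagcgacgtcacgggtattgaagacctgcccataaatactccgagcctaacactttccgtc
Rcan1: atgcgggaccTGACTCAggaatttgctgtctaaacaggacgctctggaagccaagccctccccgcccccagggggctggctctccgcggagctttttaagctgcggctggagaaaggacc
Myh7: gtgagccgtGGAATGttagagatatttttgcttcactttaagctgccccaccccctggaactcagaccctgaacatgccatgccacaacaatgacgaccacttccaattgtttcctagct
Acta1: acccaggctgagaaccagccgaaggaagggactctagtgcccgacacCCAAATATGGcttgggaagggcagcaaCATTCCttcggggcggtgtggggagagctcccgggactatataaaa
The motif begins 72 bases before the start used in Egr2, 110 in Rcan1, 201 in Myh7, and 73 (CArG box) and 46 (CATTCC) in Acta1. RefSeq lists 5 starts for Egr2, 2 each for Rcan1 and Myh7, and 1 for Acta1. The start, the stretch printed and the motifs marked were picked for each gene. The Myh7 stretch ends 91 bases before its start.

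Over the 250 bases before the start, on both strands, CATTCC was present in 15 of the 77 genes higher than both shams that have a promoter in the table (19.5%), in 12.9% of 9382 kept genes with a promoter and in 4 of 55 genes lower than both shams (7.27%). TGANTCA was present in 7 of the 77 higher genes (9.09%), in 4 of the 55 lower genes (7.27%) and in 5.50% of the kept genes. The E-box CACGTG, which the circadian CLOCK factors bind, was present in 6 of the 77 higher genes (7.79%), in 7 of the 55 lower genes (12.7%) and in 9.89% of the kept genes. The CArG box was found in 2 of the 77 (2.60%; Egr2 and Glipr2), in 1 of the 55 (1.82%) and in 1.46% of the kept genes. Before any of their listed starts, Egr2 also has CATTCC and CACGTG in this window, and Rcan1 has CACGTG. The probe sets of Glipr2 disagree in size, at 49.1 against 22.9 and at 36.4 against 34.6. These shares describe letters in a short window, not sites shown to be bound, and no difference between them was tested.

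Fibroblasts build the cardiac matrix from collagens and the proteins that bind them. Among fibrillar collagens and their close relatives, 6 of 10 kept genes were called higher, all 6 against both shams, and 0 lower, with a median log2 ratio of 1.25 against the own sham, 1.45 against the MI-series sham and at most 0.55 in size between controls. Type I collagen, the main fibre of scar and interstitium, had Col1a1 at 1456 against 365 and 315 (log2 ratio 2.00) and Col1a2 at 2566 against 967 and 999 (1.41). Col3a1 read 5512 against 2434 and 2022 (1.18), and a second, dimmer probe set gave 1.90. Col5a2 read 1237 against 436, Col8a1, a short-chain network collagen, 1422 against 333 (2.09), and Col14a1 432 against 173 (1.32). All 6 lay above every control; the highest control value of Col1a1 was 690, on the MI-series sham at 1 week. Col5a1 read 853 against 429 (0.99), Col16a1 140 against 74.2 (0.91) and Col5a3 216 against 172 (0.33). The probe sets of Col12a1 disagree: the brightest read 6.63 against 17.6 (-1.41), and another that passed the filter 51.8 against 7.38 (2.81), so no direction is given for this gene. At 1 week Col1a1 had read 2547 against 545 and the list a median of 1.52.

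**Figure D3:**
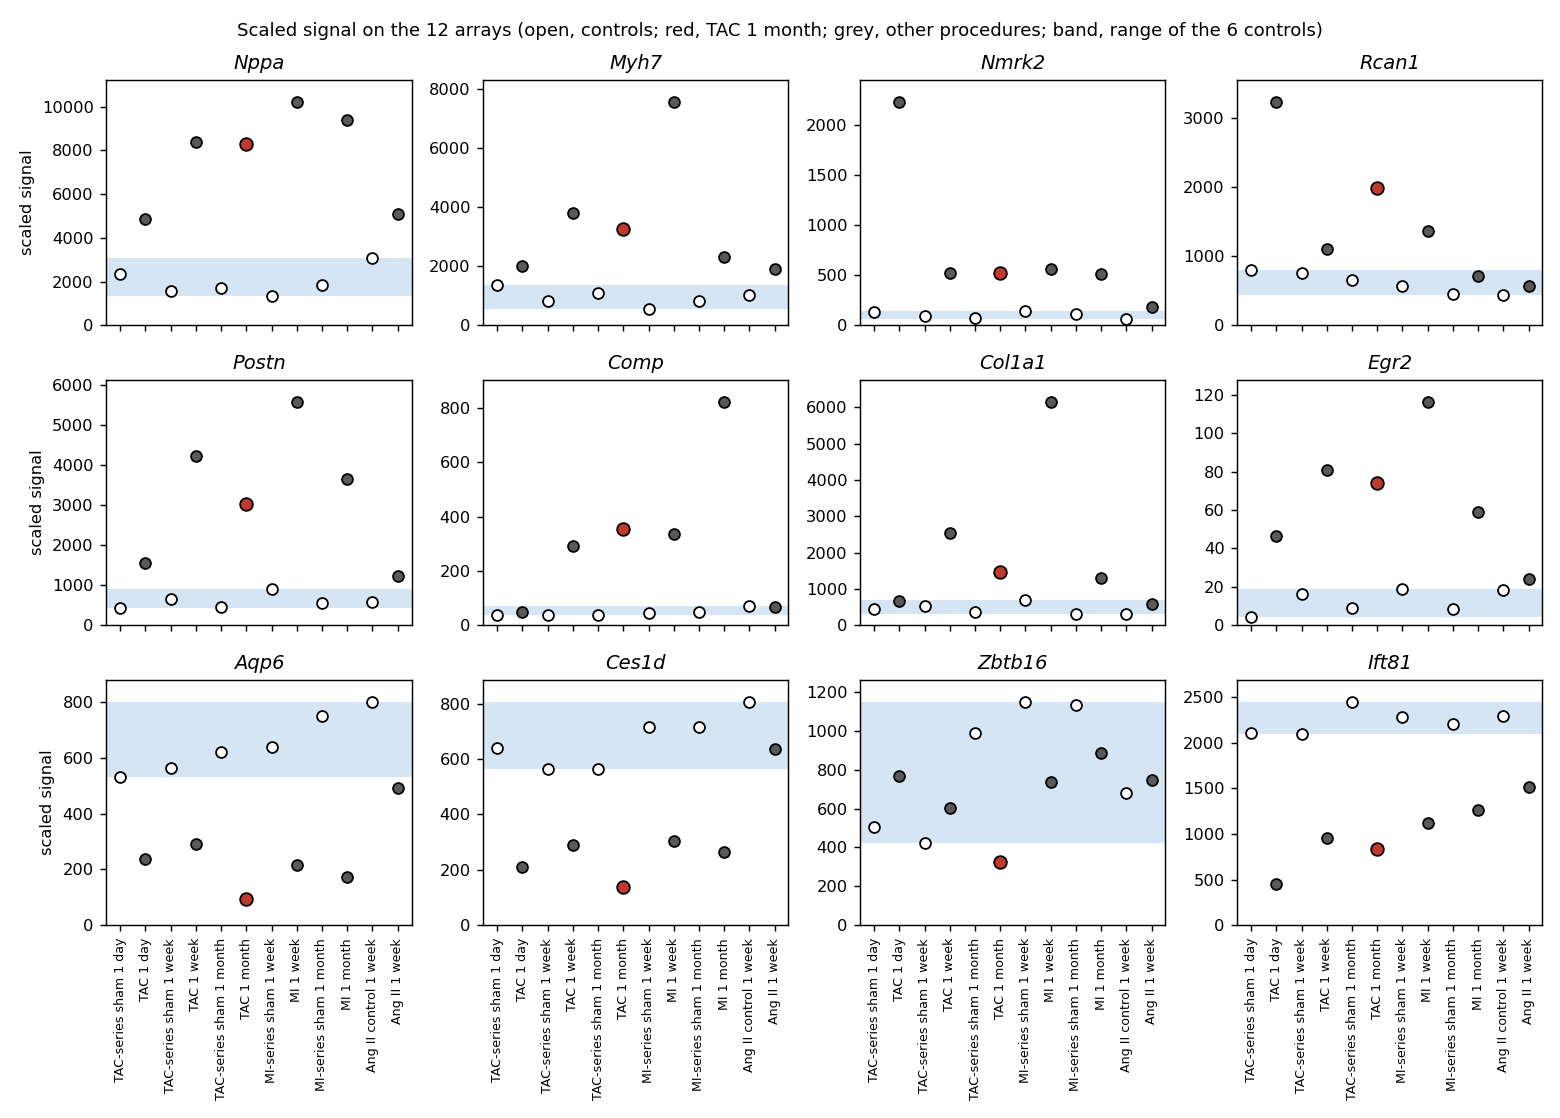
Scaled signal (y axes, linear from 0) of 12 genes on each of the 12 arrays, controls open, TAC 1 month in red, other procedures in grey, with the range of the 6 controls as a band. TAC 1 month lies above the band for Nppa (8296), Myh7, Nmrk2, Rcan1, Postn, Comp, Col1a1 and Egr2 and below it for Aqp6 (94.3), Ces1d, Zbtb16 and Ift81.

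Basement membrane and beaded-filament collagens had 3 of 20 kept genes called, all against both shams, and a median of 0.60. Col6a2 (1536 against 746) and Col6a3 (839 against 387), chains of the beaded collagen VI, had log2 ratios of 1.04 and 1.12, and Col4a3, a chain of basement membrane collagen, 1.63 at lower signal (78.5 against 25.3). Of 17 enzymes and chaperones that process or cross-link collagen, 4 were called. Lysyl oxidase (Lox) read 134 against 47.3 and 16.1, and its relatives Loxl1 1238 against 602 and 318 and Loxl3 135 against 52.9 and 61.4. Rcn3, an endoplasmic reticulum protein, read 225 against 110, with 166 in the MI-series sham, and was not 2-fold against the latter.

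Matricellular proteins, which signal from the matrix rather than build it, had 8 of 19 kept genes called higher, all 8 against both shams, and 0 lower, with a median of 0.87. Periostin (Postn), the usual mark of activated cardiac fibroblasts, read 3033 against 463 and 561, a log2 ratio of 2.71, with controls from 428 to 916. Cartilage oligomeric matrix protein (Comp) read 355 against 37.2 and 48.4 (3.25), and no control exceeded 69.6. Thrombospondins followed, with Thbs4 at 551 against 179 (1.62), Thbs1 at 141 against 58.5 (1.26) and Thbs3 at 71.6 against 27.2 (1.39). Ccn2, the connective tissue growth factor, read 2950 against 970 (1.60), its relative Ccn5 120 against 52.9 (1.18), and the proteoglycan gene Vcan 385 against 118 (1.70, and 0.55 on a second probe set). Tenascin C (Tnc) read 55.8 against 30.4, a log2 ratio of 0.88, where TAC at 1 week had 2.89.

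Microfibril and elastic fibre genes had 6 of 15 kept genes called higher and 1 lower, with a median of 0.77. Mfap4, a microfibril-associated glycoprotein, read 227 while both 1 month shams were at the floor and the highest control read 43.4, so its ratio is only bounded. Ltbp2, which binds latent TGF-beta family complexes and microfibrils, read 240 against 28.7 and 16.6 (3.07), Mfap5 1421 against 338 (2.07), matrix Gla protein (Mgp) 4150 against 1609 (1.37) and Fbln2 714 against 354 (1.01). Ltbp3 (611 against 293, 396 in the MI-series sham) was called against its own sham alone. The gene called lower was Efemp1, fibulin-3, at 28.4 against 70.7 and 104 (-1.31), which was also lower in TAC at 1 week (31.9 against 92.2).

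Small leucine-rich proteoglycans had 3 of 10 called, all against both shams, with a median of 0.71: biglycan (Bgn) read 3768 against 1667 (1.18), fibromodulin (Fmod) 140 against 43.5 (1.68) and osteomodulin (Omd) 55.2 against 20.1 (1.46). The other 5 probe sets of Fmod ranged from -0.01 to 1.17. Decorin (Dcn) read 6399 against 5368, a log2 ratio of 0.25. Of 20 matrix proteases and inhibitors 5 were called higher and 1 lower. The gene called lower was Mmp11, at 20.8 against 49.3 and 43.6 (-1.25). Adam12 read 63.8 against 5.10 and 22.8, and its second probe set 15.1 against 14.7, so the probe sets disagree. Mmp2 read 951 against 459 (1.05) and the inhibitor Timp1 218 against 78.6 (1.47). The cardiac inhibitor Timp4 read 229 against 361 (-0.66), below all 6 controls, and was not called. Cathepsin K (Ctsk) read 169 against 60.2 and 95.7 and was not 2-fold against the MI-series sham.

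Genes of the TGF-beta, activin and BMP list had 5 of 26 called higher, all against both shams, and a median of 0.29. Tgfb2 read 218 against 67.7 (1.69), with its 3 other probe sets between 1.66 and 1.97, and Tgfb3 351 against 150 (1.23), while Tgfb1 read 233 against 240 (-0.04). Fstl1, a secreted follistatin-like protein, read 1774 against 655 (1.44). Secreted modulators of Wnt signalling had 2 of 12 called, Dkk3 at 182 against 62.2 (1.55) and Frzb at 508 against 205 (1.31). The IGF-binding protein gene Igfbp6 was the 1 gene called of 12 kept IGF genes, at 366 against 142 and 143 (1.36). In TAC at 1 week it read 244 against 205 (0.25).

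Of 25 kept fibroblast and myofibroblast markers 10 were called higher, 8 against both shams, 18 lay above all controls and the summed signal of the list was 38329 against 24897, with controls from 23512 to 28525. Many of these are the matrix genes above. Genes outside the matrix lists included Cilp, a secreted fibroblast protein, at 785 against 132 and 95.2 (2.57), and Pi16, at 1050 against 310 and 407 (1.76) where TAC at 1 week gave 0.45. Pdgfra, a receptor that defines resident fibroblasts, read 688 against 585, a log2 ratio of 0.23. The smooth muscle actin gene Acta2, a myofibroblast and vessel marker, read 2899 against 4219 and 3491 (-0.54), below all 6 controls, while a second probe set read 25.1 against 23.9. In RNA of whole tissue, more cells of a type and more RNA per cell cannot be told apart.

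Markers of other cells gave few calls. Over all kept genes the share called was 2.85%, so few calls were due in lists this short. Endothelial markers had a median of 0.035 with 0 of 23 called (Pecam1 462 against 451), and pericyte markers -0.064 with 0 of 10. Macrophage and monocyte markers had a median of 0.42 with 1 of 29 called, Aif1 at 74.0 against 36.1, against differences of up to 0.82 between control arrays, and a summed signal of 11799 against 9580 lay inside the control range of 7903 to 13232. Csf1r, the receptor that defines the lineage, read 1225 against 1113. MHC class II genes (median 0.38, 0 of 9 called) were within the 1.48 by which control arrays differed at most. So were complement genes (0.52 against at most 0.76) and interferon-induced genes (0.29 against at most 0.72, 0 of 26 called). Of 14 complement genes 1 was called, C2, lower. A dimmer probe set of C2 read 15.2 against 28.8 (-0.92), and the dimmest read 27.1 against 6.84, the opposite direction. The lymphocyte list was mostly not measurable, with 4 of 22 genes kept, and of those Gzma, a protease of cytotoxic cells, read 79.9 against 28.2 and 23.8, the 1 gene called. Of 13 lung, thymus and liver markers 2 were kept, with a summed signal of 45.0 against 67.5.

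**Figure D4:**
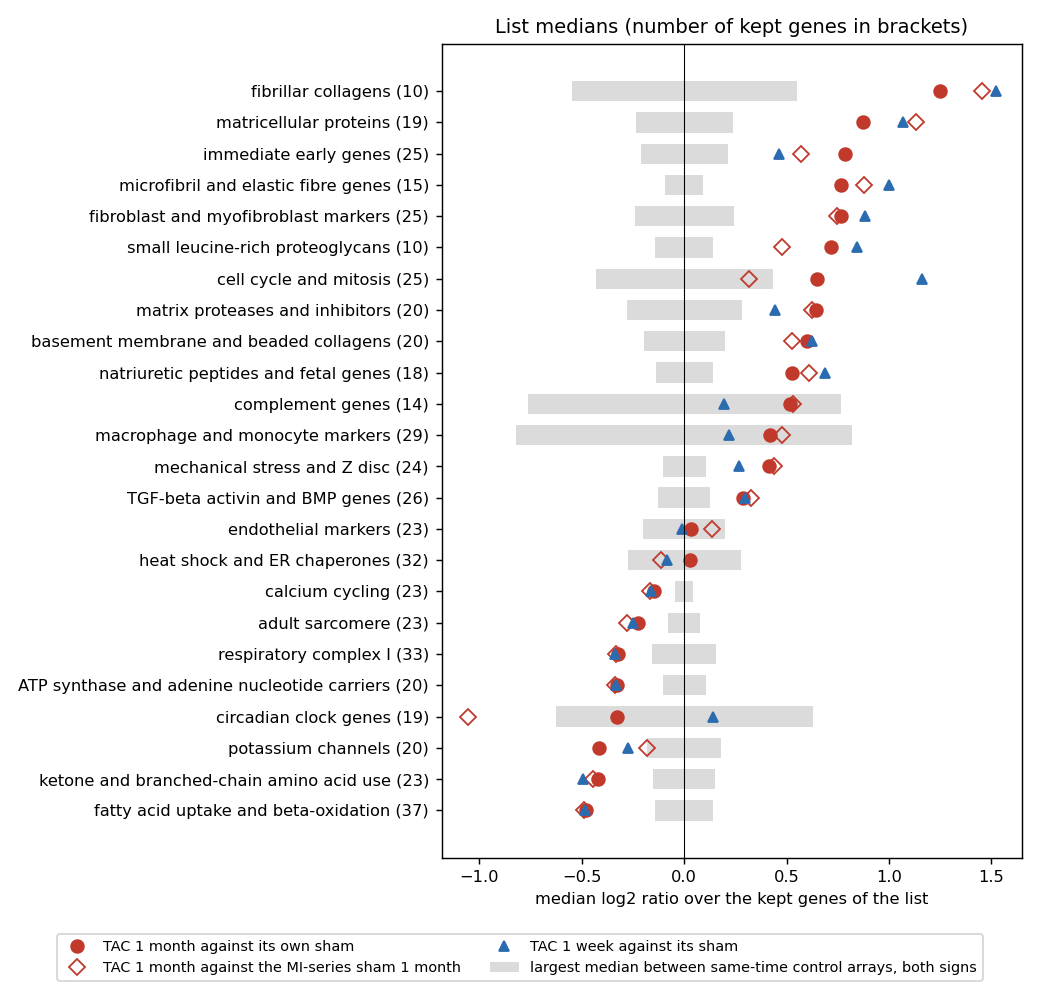
Median log2 ratio (x axis) over the kept genes of 24 lists, for TAC 1 month against its own sham and against the MI-series sham, and for TAC 1 week against its sham; grey bars span the largest median between same-time control arrays in either sign. Fibrillar collagens (1.25) stand farthest to the right and fatty acid genes (-0.48) farthest to the left among ratios to the own sham; clock genes reach -1.06 against the MI-series sham, and macrophage and complement genes lie inside their grey bars against either sham.

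Proliferation genes gave a result that depended on the sham. Of 25 kept cell cycle and mitosis genes 3 were called higher, 1 of them against both shams, and the median was 0.65 against the own sham but 0.31 against the MI-series sham, with up to 0.43 between controls. Mki67, a marker of cycling cells, read 59.0 against 21.7 and 42.3 and was not called, since a control reached 59.8. Top2a, a topoisomerase of dividing cells, read 66.9 against 32.8, and its log2 ratio was 1.03 against the own sham and 0.16 against the other. Ube2c read 54.9 against 18.8 and 26.4 (1.55). In TAC at 1 week the list median was 1.16, with Mki67 at 3.23.

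Fewer genes were lower than both shams with a signal of at least 100 (28) than higher (68). At that signal the 1 week controls, each against both others, gave 5 to 22 lower and 3 to 12 higher. Over all signals the 73 genes lower than both shams were close in number to the 45 to 72 of those controls. Among genes with the brighter signal over 500, the largest difference on the lower side was that of Aqp6, a water channel gene, at 94.3 against 620 and 750, a log2 ratio of -2.72, and its 3 other probe sets gave -1.92 to -2.24. Aqp6 was below every control on each TAC, MI and Ang II array, with 237 at 1 day and 291 at 1 week of TAC. The Ang II array read 490, where the lowest control read 531, and the TAC 1 month value was the lowest of the 12. Ces1d, a carboxylesterase that hydrolyses lipid esters, read 139 against 566 and 714 (-2.03), with 3 probe sets from -1.88 to -2.14. Both genes called lower in the class of 1000 and over, Ift81 (838 against 2447 and 2207, -1.55) and Ttll1 (1041 against 2533 and 2332, -1.28), encode proteins of cilia and microtubules. A second probe set of Ift81 gave -1.39, whereas a second one of Ttll1 that passed the filter gave 1.07 (173 against 82.6), so the direction of Ttll1 rests on its brighter probe set. These genes were named after their values were seen, as were the next.

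Other genes lower than both shams were Zbtb16, a glucocorticoid-responsive zinc finger factor, at 324 against 986 and 1135 (-1.61), Ano10 at 226 against 678 (-1.58), the ephrin gene Efnb3 at 106 against 300 (-1.49), the muscle fructose bisphosphatase Fbp2 at 56.2 against 184 (-1.71), the opioid precursor Penk at 59.6 against 181 (-1.61) and Mylk4, a myosin light chain kinase, at 433 against 963 (-1.15). Zbtb16 was not lower in TAC at 1 week (604 against 425). Its controls ran from 425 to 1148, and its other probe sets gave -1.21 and -0.48. Angpt1, which stabilises vessels through the receptor Tie2, read 65.2 against 172 and 185 (-1.40), but a second probe set read 58.9 against 51.1 (0.20). Adra1b, an alpha-1 adrenergic receptor, read 13.2 against 50.3 and 51.8 (-1.93), and the T-type calcium channel gene Cacna1g was at the floor against 38.0 and 31.4. Both are in the class under 100, where the control comparisons gave similar shares.

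Genes of fatty acid uptake and beta-oxidation read lower together by less than 2-fold. Of 37 kept, 1 was called (lower), 33 lay below all 6 controls, where 18.8% of all kept genes did, and 0 above. The share below all controls rises with signal. Among genes in none of 9 metabolic, sarcomere, calcium and ribosome lists it was 41.7% from 1000 to 5000 and 66.1% from 5000 up. Of the 37 fatty acid genes, 27 had a control signal of 1000 or more and 12 of 5000 or more. The median log2 ratio was -0.48 against the own sham, -0.49 against the MI-series sham and -0.42 with quantile normalization, and control pairs differed by at most 0.14. Acaa2, the last enzyme of the beta-oxidation spiral, read 2715 against 5049 and 5205 (-0.90), with its other probe sets at -0.67 and -0.86. Ech1 read 4877 against 8366 (-0.78), Hadha, the alpha subunit of the trifunctional protein, 3186 against 4636 (-0.54), Acadm, medium-chain acyl-CoA dehydrogenase, 5366 against 7312 (-0.45) and the triglyceride synthase Dgat2 620 against 1190 (-0.94). The called gene was Acot1, an acyl-CoA thioesterase under PPAR-alpha control, at 15.8 against 56.5, with controls up to 325. Among regulators, Ppargc1a read 427 against 608 (-0.51), below all controls, whereas Ppara read 290 against 473 but 338 in the MI-series sham (-0.71 and -0.22).

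Ketone and branched-chain amino acid genes were similar, with 19 of 23 below all controls and a median of -0.42 (-0.44 with quantile normalization). Of these 23 genes, 14 had a control signal of 1000 or more, and the shares given above for bright genes apply to them. Ppm1k, the phosphatase that activates branched-chain ketoacid dehydrogenase, read 673 against 1264 (-0.91), and that complex's subunits Bckdha and Bckdhb read 607 against 970 (-0.68) and 689 against 1092 (-0.67). In the TCA cycle 19 of 20 lay below all controls, with a median of -0.32 (-0.18 with quantile normalization), led by mitochondrial isocitrate dehydrogenase Idh2 at 3150 against 5856 (-0.89) and citrate synthase Cs at 5135 against 7315 (-0.51). The TCA genes are bright too, with 19 of 20 at a control signal of 1000 or more and 11 at 5000 or more.

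Respiratory chain genes depended more on the scaling. Complex I, which passes electrons from NADH to ubiquinone, had 31 of 33 kept genes below all controls and 0 called, with a median of -0.32 that became -0.094 with quantile normalization. Complexes II to IV had -0.29 (24 of 26 below), which became -0.065, and ATP synthase with the adenine nucleotide carriers -0.33 (19 of 20 below), which became -0.079. Complex I genes have a median control signal of 5986, and bright genes read lower in general: 62 genes with a control signal of 5000 or more that belong to none of 9 metabolic, sarcomere, calcium and ribosome lists had a median of -0.19, and 66.1% of them lay below all 6 controls, while 757 such genes between 1000 and 5000 had -0.073. With quantile normalization the 62 genes had a median of 0.049. Its part in the respiratory lists was not tested.

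**Figure D5:**
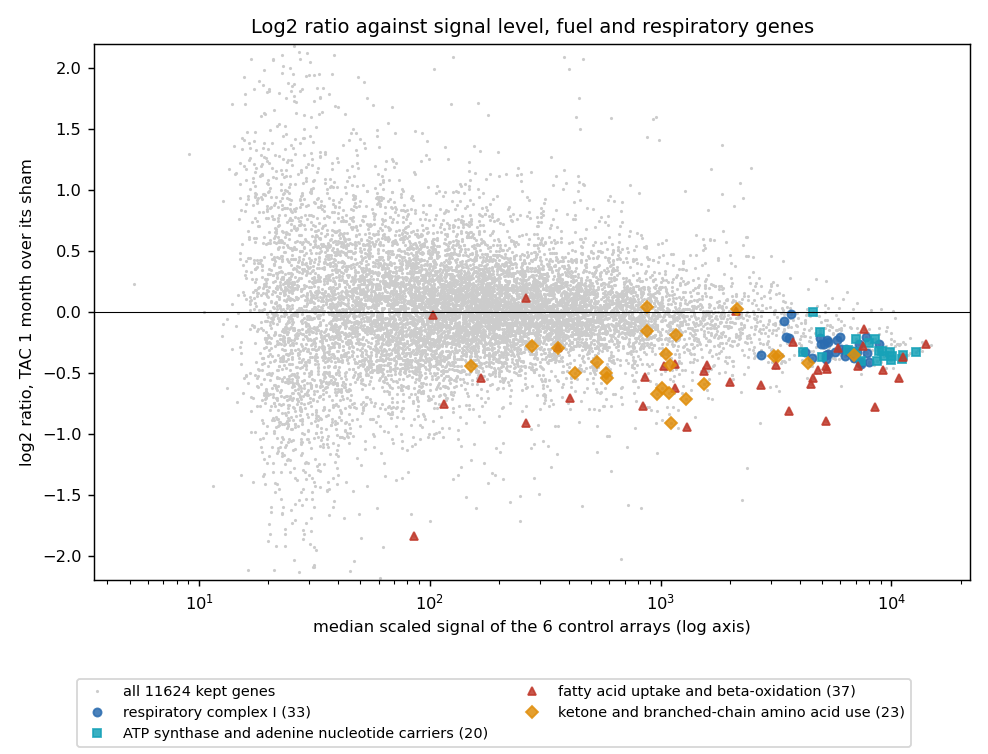
Log2 ratio of TAC 1 month over its sham (y axis, 66 genes lie beyond the axis) against the median control signal (x axis, log scale), all kept genes in grey and 4 lists in colour. Complex I genes (median -0.32) and ATP synthase genes (-0.33) lie at high signal, and fatty acid genes (median -0.48) spread lower.

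Contractile and excitation genes showed small differences. Adult sarcomere genes had 19 of 23 below all controls and a median of -0.22, which turned to 0.031 with quantile normalization, so no direction is given for the list. Calcium cycling genes had 12 of 23 below all controls and a median of -0.15 (-0.070 with quantile normalization). Atp2a2, the sarcoplasmic reticulum calcium pump, read 9058 against 11908 (-0.39), and its 5 other probe sets were all lower, from -0.16 to -0.74. Its inhibitor phospholamban (Pln) read 9628 against 12314 (-0.35), the release channel Ryr2 3238 against 4252 (-0.39) and the store protein gene Hrc 2899 against 4443 (-0.62). Atp2a2 and Pln are among the genes with a control signal of 5000 or more, which had a median of -0.28, with 86.0% below all controls. Ryr2 and Hrc lie between 1000 and 5000, where the median was -0.088 and 45.9% lay below. The exchanger Slc8a1 read 256 against 264 and Casq2 3488 against 3719.

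Potassium channel genes, which repolarise the myocyte, had 9 of 20 below all controls and 0 called. Their median was -0.42 against the own sham and -0.18 against the MI-series sham. Control pairs differed by up to 0.18 in size, so the median against the MI-series sham was of the size seen between controls. Kcnip2, the subunit that carries the fast transient outward current to the membrane, read 905 against 1649 and 1272 (-0.87 and -0.49), and the pore genes of that current, Kcnd2 and Kcnd3, read 215 against 327 and 319 and 89.4 against 147 and 96.3. Kcnh2 read 204 against 353 and 366 (-0.79), and Kcnj3 109 against 188 and 218 (-0.79). Kcnip2, Kcnd2, Kcnd3, Kcnh2 and Kcnj3 lay below all 6 controls. Kcna5, which carries an ultrarapid current, read 502 against 468, above all 6.

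Heat shock and clock genes show how far the size of a difference can rest on the sham. Hspa1a, an inducible HSP70 gene, read 756 against 101 in its own sham (log2 ratio 2.90) but 570 in the MI-series sham (0.41), and its neighbour copy Hspa1b 1850 against 169 and 2551; the near-identical pair can share signal. The heat shock and chaperone list had a median of 0.027 and -0.11 against the own and the other sham. The clock output gene Dbp read 241 against 467 in its own sham and 1387 in the other, and the 6 controls ran from 467 to 2051. Of 19 kept clock genes 1 was called higher and 2 lower, all against both shams: Nfil3, a repressor, at 136 against 50.6 and 28.2, Hlf at 30.4 against 76.7 and 166, and Cry1 at 27.1 against 57.2 and 83.2. The list median was -0.33 against the own sham and -1.06 against the other, and both 1 month shams differed from each other by -0.59. The hour of harvest is not given in the sources used here, and its part was not tested.

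The trimmed mean of the deposited signals was 131 on the TAC 1 month array and 105 on its sham, the highest and the lowest of the 12, and scaling removed this: the median log2 ratio of all kept genes was -0.0031 after scaling and 0.31 on the values as deposited. Control probe sets at both ends of the Gapdh transcript gave a 3′ over 5′ ratio of 0.823 on the TAC array and 0.839 on the sham. The Y-linked gene Eif2s3y read 371 and 402. Of the 86 further probe sets of genes that differed from both shams and passed the same filter, 76 gave the same direction and 10 the opposite. Probe sets under the filter also differed from the one used, by over 1 in log2 ratio or in sign, for Col14a1, Col5a3, Kcnd2, Kcnd3, Lox, Ltbp3, Nr4a3, Top2a and Vcan.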

How the data were processed

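The deposited values are intensity, a linear signal per probe set, and per the submitters' processing notes the authors used GCOS; its version, the signal algorithm and any scaling were not stated in what was used here. All 12 columns were scaled to a common 2% trimmed mean, raised to the 20th percentile of all values (4.54) and log2-transformed in Python 3.11.15 with pandas 2.3.3. Of 45101 probe sets, 34958 carry exactly 1 gene symbol. A gene is its brightest probe set, kept when its mean log2 lay above the 40th percentile (a signal of 18.1). The log2 ratio is TAC 1 month over the TAC-series sham 1 month. No test was possible with 1 array a side. The calling steps were checked on simulated data, with changes planted only in genes of a mean signal over 100. That check does not bear on calls under 100 or on the spread between real arrays. Named genes were the 20 highest and 20 lowest called, up to 8 each way at the floor, and per list all called members and the 4 largest differences, with all kept members of 4 lists. Genes named outside this rule (Acadm, Csf1r, Dcn, Ech1, Egr1, Glipr2, Hadha, Jun, Myh6, Myl7, Pdgfra, Pecam1, Ppargc1a, Tgfb1, Timp4, Tnc, and those lower or higher than both shams with a signal of at least 100) were chosen after their values were seen. The members, the 64 lists and the rules were chosen with earlier results of these data known. The number of arrays limits the precision. Alternatives covered scaling, floor, probe set, filter and control array.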

Additional observations from a re-analysis of the deposited data

Results flagged for a closer look

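Genes called in TAC at 1 month in the direction opposite to another comparison were few, and no difference between comparisons was tested. Lgals2, a galectin gene, had a log2 ratio of -1.65 at 1 month of TAC and 1.44 at 1 week, with signals of 15.1 and 47.2 at 1 month. Tnfaip8l2, a regulator of immune signalling, had -1.36 at 1 month of TAC and 1.54 at 1 week. Casp4, an inflammatory caspase, had -1.02 at 1 month of TAC and 1.03 at 1 month of MI. All 3 have signals under 100, the class in which control arrays differ as often.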

How the results depend on the processing

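Each ratio rests on 1 TAC and 1 sham array, so array and condition cannot be told apart. No paired analysis was possible because each group has 1 array. On values as deposited, where the median of all genes is 0.31, 569 genes were higher and 61 lower (90.3% higher against 61.9%), and medians were 0.84 for natriuretic and fetal genes, 0.96 for cell cycle, -0.16 for fatty acid genes and -0.0082 for complex I; the medians of adult sarcomere (0.092), calcium cycling (0.17), sodium channels and connexins (0.13), calcineurin signalling (0.20), complexes II to IV (0.024), energy transfer (0.066), nuclear regulators of fuel genes (0.066) and antioxidant genes (0.19) turned positive, all below that shift. Quantile normalization turned adult sarcomere (0.031) and calcineurin signalling (0.0080) and moved complex I to -0.094. The mean of all probe sets gave 0.64 for the fetal list, and no filter 0.37. Genes above the 60th percentile gave 91 higher and 47 lower, 0.36 for cell cycle, 0.18 for mesothelial and -0.15 for skeletal muscle markers. Against the MI-series sham, 286 genes were higher and 119 lower (70.6% higher), cell cycle was 0.31 and skeletal muscle markers -0.22. With the range of controls not required, 198 were lower; at 1.5-fold, 593 were higher and 374 lower. Alternatives chosen after seeing the data gave 117 and 73 against both shams, and 96 and 41 (70.1% higher) with a brighter signal above 100. The mean of both shams gave 224 and 95 (70.2% higher). Of the ratios of named genes under these alternatives, 2913 moved by less than the spread of control pairs and 525 by more; the rule for calls largely fixes the sign of a called gene, so its sign says nothing of stability. The cause of these moves was not tested.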
